A study of Mus musculus with 12 samples.

Results

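The genes described here are Hnf4a, Hnf4g and Esrrg, 3 of the 55491 genes in the deposited tables, taken by their symbols and followed through all 12 libraries. They were measured in PT-22, a mouse cell line labelled as proximal tubule, by bulk sequencing of polyA RNA. Every library, control included, carried the genotype Pax2-/-, Pax8fl/fl, Rosa-CreERT2: no Pax2, a Pax8 gene that Cre can delete, and a tamoxifen-inducible Cre driven from the Rosa locus. The control group had no treatment; the other groups were exposed for 2 days to 4-hydroxytamoxifen (1 µM), meant to remove PAX8, and are labelled day 2, day 6 and day 12. With 3 libraries (A, B and C) in each of 4 groups, the shallowest library was day 2 B with 4326667 counts and the deepest day 2 C with 11654959. All libraries came from a single line, and the labels do not say whether letters mark separate cultures, so a p-value here speaks of the spread among libraries, which may be technical. There was neither a vehicle control nor a later untreated group, so PAX8 loss, the drug, Cre activity and time in culture cannot be told apart.

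Hnf4a and Hnf4g encode hepatocyte nuclear factors 4α and 4γ, nuclear receptors that bind DNA as homodimers and switch on transport and metabolic genes in liver, intestine and kidney. In the kidney HNF4α is a marker and driver of proximal tubule maturation. Esrrg encodes oestrogen-related receptor γ, an orphan receptor that is active without a hormone and, with PGC-1 coactivators, drives genes of mitochondrial respiration. 4-Hydroxytamoxifen is itself a ligand of the ERRγ protein and lowers its activity, so for targets of Esrrg the drug is a second agent that the design does not separate from PAX8 loss.

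Hnf4a (ENSMUSG00000017950) lies on the forward strand of chromosome 2, 163506808 to 163572910 of GRCm38. Its annotation in GENCODE M21 holds 5 transcripts, 4 of them coding. Hnf4g (ENSMUSG00000017688) lies on chromosome 3, 3508030 to 3658052, with 2 transcripts. Esrrg (ENSMUSG00000026610) lies on chromosome 1, 187608791 to 188214885, with 5 transcripts, 4 of them coding. Of the annotated genes that overlap them, Gm38315, on the strand of Esrrg, had 7 counts over the 12 libraries and the others had 0.

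Hnf4a has an upstream promoter, P2, and a downstream promoter, P1, which is the main one in adult liver and kidney. Gene-level counts do not separate their transcripts. The stretches before the 2 start sites are shown because a change in Hnf4a counts can come from either. The sequences are from RefSeq (GRCm38.p6), forward strand, 5′ to 3′, at chr2:163506707-163506856 and chr2:163547005-163547154. They are in lower case throughout, since none of the motifs searched below was found in them.
Hnf4a upstream promoter: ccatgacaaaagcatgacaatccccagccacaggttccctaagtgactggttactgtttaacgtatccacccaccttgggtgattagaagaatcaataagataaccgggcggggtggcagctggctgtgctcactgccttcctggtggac
Hnf4a downstream promoter: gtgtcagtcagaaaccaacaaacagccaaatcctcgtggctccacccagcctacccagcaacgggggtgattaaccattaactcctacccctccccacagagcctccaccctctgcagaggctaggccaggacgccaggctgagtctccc

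Windows of 300 bases were searched on both strands, 2 for Hnf4a and 4 for Esrrg; Hnf4g had no entry. The nuclear receptor hexamer AGGTCA (in 16.3% of the 32851 promoter windows of the table), the ERR element TCAAGGTCA (0.423%), the HNF4 core CAAAGTCCA (0.475%) and GCGTGAC, a stretch of a PAX consensus (2.09%), had no match in the 6 windows. TCAAGGTCA contains AGGTCA. The lack of a match says only that these letters are not in these windows.

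Levels are given as CPM, counts scaled to a TMM-adjusted library total of 1000000, and as TPM where genes are compared with each other. Differences are log2 fold changes from edgeR's quasi-likelihood test, called at an adjusted p (Benjamini-Hochberg over 13513 tested genes) under 0.05. In bulk RNA, fewer cells with a transcript and less transcript per cell cannot be told apart.

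Proximal tubule markers were present only in part. Of 43 such markers, 24 stayed under 1 TPM in every library, and the others reached 1 TPM in at least 1 library. Aqp1, Cdh6, Mme and Enpep had the highest mean TPM of the list. Slc34a1, Slc5a2, Slc5a12, Fbp1, Kap, Cyp2e1, Slc13a1 and Slc7a9 had 0 counts in all 12. The summed marker level was 546.93 to 612.06 TPM in control libraries and 552.41 to 609.6, 775.5 to 936.16 and 495.82 to 603.78 TPM on days 2, 6 and 12. The sum hides a fall of most tested markers: of 21, 12 fell and 4 rose at day 2, 15 fell and 3 rose at day 6, and 15 fell and 1 rose at day 12. Over all tested genes 10.9% fell and 10.3% rose at day 2, 27.6% and 26.7% at day 6, and 26.6% and 26.1% at day 12. The median log2 fold changes of the tested markers were -0.60, -1.002 and -1.48. The water channel gene Aqp1 went the other way, with 108 ± 3.19 TPM in control and 700 ± 90.6 at day 6 (SD, n = 3). The gene-level count of the targeted Pax8 was no lower in treated libraries: 225 ± 3.46 CPM in control and 402 ± 51.0, 256 ± 10.9 and 242 ± 10.5 CPM on days 2, 6 and 12 (SD, n = 3). The sources used here do not say which Pax8 exons Cre removes, and a gene-level count does not separate exons, so whether the deletion took place was not tested with these counts. The summed level of 10 fibroblast and smooth muscle markers was 6.00 to 11.17 TPM in control libraries and 14.55 to 20.56, 76.41 to 97.62 and 297.54 to 363.64 TPM on days 2, 6 and 12. Acta2, encoding smooth muscle actin, made up 294 ± 32.4 TPM of the day 12 sum (SD, n = 3), and Pdgfra and Col3a1 were at 0.

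Hnf4a fell steeply within 2 days, was lowest at day 6 and stood higher again at day 12, still well under control. Esrrg fell at day 2 and again by day 6 and was not shown to change further by day 12. Hnf4g had 1 count in all libraries together. The tested members, Hnf4a and Esrrg, were lower on each of the 3 days. Over all tested genes 10.9% were lower and 10.3% higher at day 2, 27.6% lower and 26.7% higher at day 6, and 26.6% lower and 26.1% higher at day 12. The day 6 split of 3614 higher and 3729 lower genes became 3365 and 2129 with limma on log2(TPM + 1).

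Hnf4a in control libraries had 131 (A), 100 (B) and 90 (C) counts, which is 15.1, 13.8 and 9.41 CPM. At day 2 it had 5, 7 and 9 counts, or 0.680, 1.64 and 0.769 CPM. At day 6 it had 4, 1 and 3 counts, or 0.398, 0.111 and 0.400 CPM. All control libraries lay above all treated libraries, and the day 6 libraries lay under every other library. At day 12 it had 22, 21 and 12 counts, or 2.57, 2.36 and 1.23 CPM. Day 12 libraries A and B lay above every day 2 library, whereas day 12 C lay below day 2 B.

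The control mean of Hnf4a was 12.8 ± 2.99 CPM, against 1.03 ± 0.529, 0.303 ± 0.166 and 2.05 ± 0.718 CPM on days 2, 6 and 12 (SD, n = 3). Against control, the log2 fold change was -3.78 ± 0.31 (SE) at day 2 (edgeR adjusted p = 6.83e-12). It was -5.34 ± 0.36 at day 6 (edgeR adjusted p = 1.12e-14) and -2.64 ± 0.26 at day 12 (edgeR adjusted p = 8.38e-11). These are 13.8-fold, 40.4-fold and 6.23-fold lower levels. The day 6 value rests on 8 counts in the 3 libraries together, so its size is known less well than its direction.

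Between treated days, Hnf4a fell by 1.55 ± 0.60 on the log2 scale from day 2 to day 6 (edgeR adjusted p = 0.0335), in a comparison where 44.9% of tested genes passed in either direction. From day 6 to day 12 it rose by 2.696 ± 0.49, or 6.48-fold (edgeR adjusted p = 9.80e-05), where 22% of genes passed. Day 12 stood 1.14 ± 0.40 above day 2 (edgeR adjusted p = 0.0210), where 43.9% of genes passed. The order of levels was therefore control, day 12, day 2 and day 6, and the weakest steps were those next to day 2. The fall from day 2 to day 6 did not pass without day 2 B (-1.24, edgeR adjusted p = 0.118) or without day 6 B (-1.16, edgeR adjusted p = 0.147). The difference between days 12 and 2 did not pass without day 2 A, day 2 C, day 12 A or day 12 B (0.95 to 1.02, edgeR adjusted p = 0.0761 to 0.120). With limma on log2(TPM + 1) none of these 3 contrasts between treated days passed (adjusted p = 0.227, 0.201 and 0.733).

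**Figure D1:**
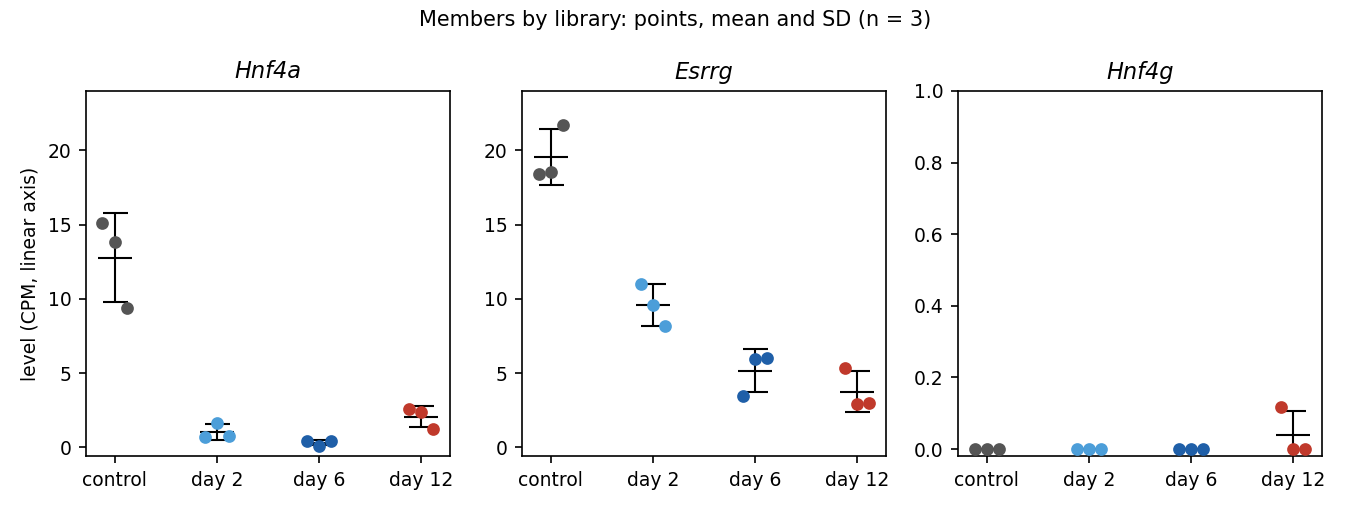
Level of Hnf4a, Esrrg and Hnf4g in each library (points, CPM on a linear axis) with the mean and SD of the 3 libraries of each group; the Hnf4g axis is expanded. Hnf4a drops to between 0.680 and 1.64 CPM at day 2, Esrrg is lower at days 6 and 12 than at day 2, and Hnf4g has 1 library above 0.

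Hnf4g, the paralogue of Hnf4a, had 1 count in all 12 libraries, in day 12 A (0.117 CPM). A group total of 0 allows up to 0.118, 0.128 and 0.113 CPM in control and on days 2 and 6, taking 3 counts over the group as the limit for counting error. Hnf4g therefore passed no filter, entered no test and is given no fold change. Among HNF4 genes, the RNA measured in these cells was that of Hnf4a.

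Esrrg in control libraries had 160 (A), 134 (B) and 208 (C) counts, which is 18.4, 18.5 and 21.7 CPM. At day 2 it had 81, 41 and 96 counts, or 11, 9.59 and 8.20 CPM. All day 2 libraries lay below all control libraries. At day 6 it had 35, 54 and 45 counts, or 3.48, 5.97 and 6.00 CPM. At day 12 it had 46, 26 and 29 counts, or 5.37, 2.92 and 2.98 CPM. Day 6 and day 12 libraries overlapped, with day 12 A above day 6 A, and both groups lay below day 2.

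The control mean of Esrrg was 19.6 ± 1.88 CPM, against 9.60 ± 1.41, 5.15 ± 1.45 and 3.75 ± 1.40 CPM on days 2, 6 and 12 (SD, n = 3). The log2 fold change against control was -1.05 ± 0.18 (SE) at day 2 (edgeR adjusted p = 2.85e-05), -1.95 ± 0.19 at day 6 (edgeR adjusted p = 2.95e-10) and -2.39 ± 0.20 at day 12 (edgeR adjusted p = 7.95e-12). These are 2.07-fold, 3.86-fold and 5.26-fold lower levels. Esrrg fell by 0.90 ± 0.21 from day 2 to day 6 (edgeR adjusted p = 8.17e-04) and by 1.34 ± 0.22 from day 2 to day 12 (edgeR adjusted p = 8.84e-06). In these comparisons 44.9% and 43.9% of tested genes passed in either direction. The step from day 6 to day 12, -0.44 ± 0.24, did not pass (edgeR adjusted p = 0.194), so these neighbours in the order control, day 2, day 6, day 12 did not differ beyond their spread. Without day 6 A (-0.68, edgeR adjusted p = 0.0485) or without day 12 A (-0.79, edgeR adjusted p = 0.0278) that step did pass. With limma on log2(TPM + 1) the fall from day 2 to day 6 did not pass (-0.57, adjusted p = 0.0762), and with limma on log2(TPM + 0.1) neither did the fall at day 2 (-1.02, adjusted p = 0.0726).

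In exact permutation tests of the CPM values (two-sided), p was 0.1 for Hnf4a and for Esrrg on each day against control, the smallest value that 3 against 3 libraries allow.

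The ratio of Hnf4a to Esrrg within a library is not scaled by its depth, but its precision depends on the counts. Hnf4a had 21 counts at day 2 and 8 at day 6, so the ratios of those days are imprecise. Hnf4a had 0.819, 0.746 and 0.433 counts per Esrrg count in control libraries A, B and C. The ratio was 0.0617, 0.171 and 0.0938 at day 2 and 0.114, 0.0185 and 0.0667 at day 6. It was 0.478, 0.808 and 0.414 at day 12. Control and day 12 overlapped, as did day 2 and day 6, and every library of the first pair of groups lay above every library of the second. At day 12 both genes were below control, by -2.64 for Hnf4a and -2.39 for Esrrg on the log2 scale, so neither level had returned to control. The mean log2 ratio was -0.64 ± 0.50 in control libraries and -3.33 ± 0.74, -4.26 ± 1.35 and -0.88 ± 0.51 on days 2, 6 and 12 (SD, n = 3). Over the 6 pairs of groups, the exact two-sided permutation p was 0.1 for the 4 pairs without overlap (0.15 after Benjamini-Hochberg adjustment), 0.5 for day 6 against day 2 and 0.7 for day 12 against control. No pair could reach 0.05, since 0.1 is the smallest value possible.

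**Figure D2:**
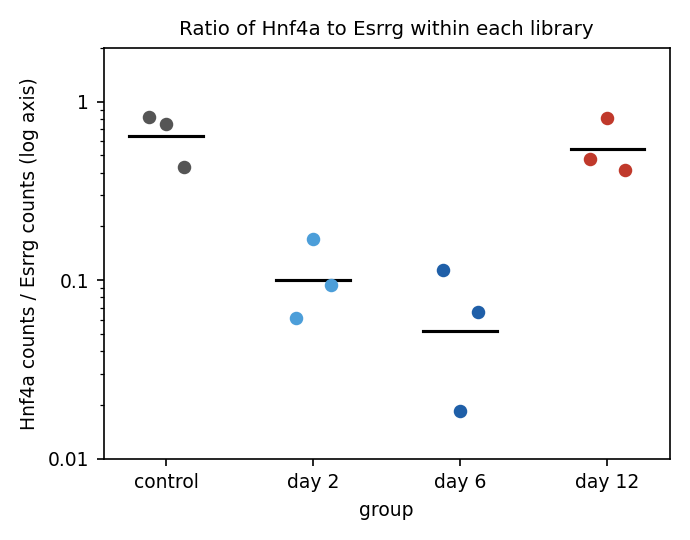
Counts of Hnf4a divided by counts of Esrrg in each library (points, log axis), with the mean of the log ratios of each group (line). The control and day 12 libraries sit between 0.414 and 0.819, and the day 2 and day 6 libraries between 0.0185 and 0.171. At day 12 both genes were below control.

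Per transcript length, Esrrg and Hnf4a were in the same range before treatment. Control libraries had 5.63, 5.35 and 7.48 TPM of Esrrg and 5.47, 4.79 and 3.51 TPM of Hnf4a. Esrrg was higher in each of these libraries, although the ranges overlapped. At day 6 the means were 1.69 ± 0.484 TPM for Esrrg and 0.117 ± 0.0666 TPM for Hnf4a, with no overlap. At day 12 they were 1.19 ± 0.440 and 0.863 ± 0.368 TPM (SD, n = 3), and the ranges overlapped again.

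Hepatocyte nuclear factors of other families, listed together with related genes such as Pcbd1 and Nr5a2, did not move as 1 group. Of 11 tested genes on this list, 4 rose and 2 fell at day 2, 5 rose and 3 fell at day 6, and 6 rose and 3 fell at day 12. Their median log2 fold changes were 0.43, 0.36 and 0.83, beside a median within 0.01 of 0 for all genes, of which 10.3%, 26.7% and 26.1% rose and 10.9%, 27.6% and 26.6% fell. Pcbd1, a pterin dehydratase that also acts as a transcription cofactor, was among those that fell from day 6, from 106 ± 5.58 CPM in control to 60.0 ± 1.60 by day 6 (SD, n = 3; -0.82 ± 0.09, edgeR adjusted p = 1.86e-08). Those that rose included Foxa2, a pioneer factor of liver and other endoderm, and Nr5a2, an orphan receptor of liver and pancreas.

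Foxa2 rose from 12.3 ± 1.15 CPM in control to 29.9 ± 1.75 by day 6 (SD, n = 3; 1.28 ± 0.11, edgeR adjusted p = 5.88e-12). Onecut2, which encodes HNF6β, rose from 4.35 ± 0.722 CPM to 12.3 ± 0.999 by day 12 (1.497 ± 0.17, edgeR adjusted p = 3.48e-09).

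**Figure D3:**
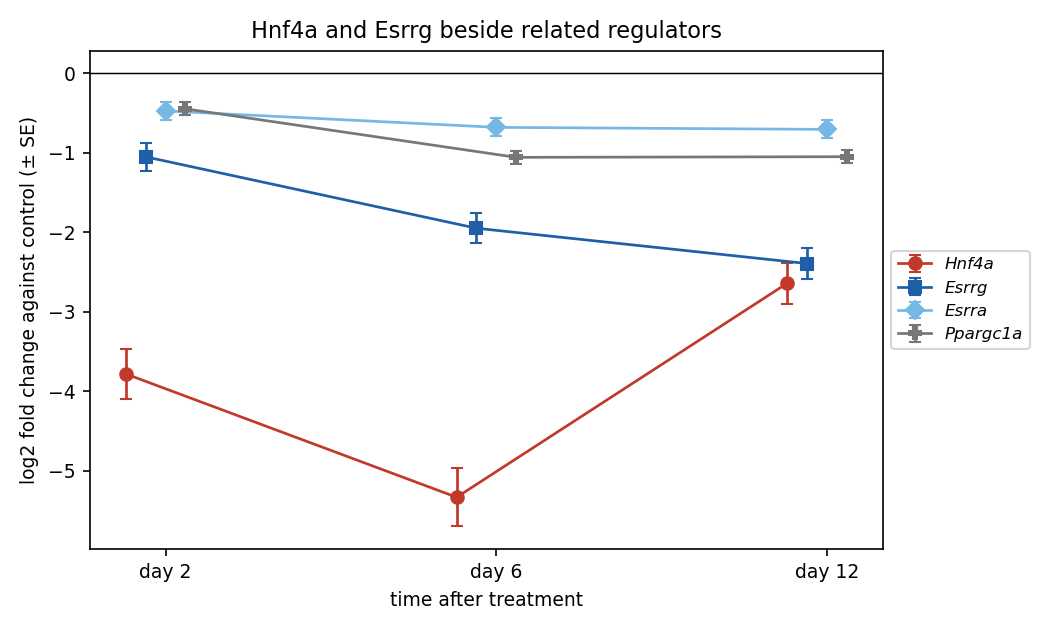
Log2 fold change against control (edgeR fit, bars are the SE) of Hnf4a, Esrrg, Esrra and Ppargc1a at each day after treatment. Hnf4a is lowest at day 6 and returns to -2.64 at day 12, next to Esrrg at -2.39, and Esrra and Ppargc1a lie above both throughout.

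Genes known as HNF4 targets moved in both directions. Of 64 listed, 22 passed the filter on low counts; the other targets were too low to test. At day 2, 4 rose, 7 fell and 11 did not pass; at day 6, 5 rose, 11 fell and 6 did not pass; at day 12, 6 rose, 12 fell and 4 did not pass. The medians were -0.17, -0.46 and -0.56 on the log2 scale. Over all tested genes the shares that rose were 10.3%, 26.7% and 26.1% on days 2, 6 and 12, and the shares that fell 10.9%, 27.6% and 26.6%. With limma on log2(TPM + 1), 1 HNF4 target rose at day 2. Among the tested targets, 5 are also on the proximal tubule marker list (Slc2a2, Slc17a1, Dpp4 and Cubn among them), whose counts are given above. The fibroblast and smooth muscle markers rose over the same days, to the sums given above; their part in these counts was not tested.

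Pdzk1, which encodes a scaffold of apical transporters, fell early and stayed low. Its level was 8.28 ± 0.0235 CPM in control and 0.757 ± 0.245, 0.118 ± 0.111 and 0.0342 ± 0.0593 CPM on days 2, 6 and 12 (SD, n = 3), from 211 counts in control to 1 at day 12, with no return. Its fall at day 2 was -3.34 ± 0.33 on the log2 scale (edgeR adjusted p = 5.71e-10). Agt, which encodes angiotensinogen, fell from 106 ± 4.75 CPM in control to 28.9 ± 0.918 by day 2 (-1.87 ± 0.08, edgeR adjusted p = 4.89e-19), then stood at 43.2 ± 4.06 at day 6, where Hnf4a was lowest, and at 23.6 ± 1.76 at day 12. Slc2a2, the glucose transporter GLUT2, was 3.59 ± 0.455 CPM in control, rose to 6.15 ± 0.911 by day 2 (0.81 ± 0.24, edgeR adjusted p = 0.0129) and fell to 0.833 ± 0.334 at day 6 (-2.04 ± 0.33, edgeR adjusted p = 2.63e-06).

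Other HNF4 targets rose against control on some days. Ass1, an enzyme of arginine synthesis, was 30.4 ± 3.51 CPM in control and 30.1 ± 4.13 at day 6 and rose to 100 ± 4.38 at day 12 (SD, n = 3; 1.71 ± 0.09, edgeR adjusted p = 3.35e-18). Between days 6 and 12 Hnf4a rose as well, and a link with Ass1 was not tested. Slc17a1, a phosphate transporter gene of the proximal tubule, rose at days 2 and 6.

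Among genes known as targets of the oestrogen-related receptors, more fell than rose on each day. Of 66 listed, 60 were tested. At day 2, 27 fell, 2 rose and 31 did not pass; at day 6, 43 fell, 6 rose and 11 did not pass; at day 12, 41 fell, 4 rose and 15 did not pass. The medians were -0.18, -0.41 and -0.44 on the log2 scale, beside all-gene medians within 0.01 of 0. Of all tested genes 10.9%, 27.6% and 26.6% fell and 10.3%, 26.7% and 26.1% rose. With limma on log2(TPM + 1), 16 ERR targets fell at day 2 and 28 at day 6. Over all genes that setting gave 871 and 2129 lower on these days, beside 1468 and 3729 in the main fit. The 4 that rose at day 12 were Pdk4, Cpt1b, Fabp3 and Hif1a; leaving out control A or day 12 A left 1, and leaving out control C or day 12 B left 2.

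Atp5b, the β subunit of ATP synthase, fell from 1394 ± 62.5 CPM in control to 1081 ± 66.6, 778 ± 8.52 and 848 ± 31.1 CPM on days 2, 6 and 12 (SD, n = 3; -0.84 ± 0.05 at day 6, edgeR adjusted p = 2.07e-15). Idh3a, a subunit of isocitrate dehydrogenase in the citric acid cycle, went from 87.0 ± 7.29 CPM to 36.3 ± 1.98 by day 6 (-1.26 ± 0.09, edgeR adjusted p = 1.01e-14). Mdh2, the mitochondrial malate dehydrogenase, fell from 351 ± 15.6 CPM to 188 ± 9.05 by day 6 (-0.90 ± 0.05, edgeR adjusted p = 5.56e-16). Cyc1 of respiratory complex III and Got1, the cytosolic aspartate aminotransferase, fell too, by 0.83 and 0.98 at day 6. All 5 of these genes had passed the test as lower at day 2 and lay lower still at day 6. Hif1a, the oxygen-regulated transcription factor, went the other way, from 174 ± 4.28 CPM to 223 ± 0.839, 319 ± 30.005 and 555 ± 17.4 CPM (1.67 ± 0.06 at day 12, edgeR adjusted p = 1.03e-22).

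**Figure D4:**
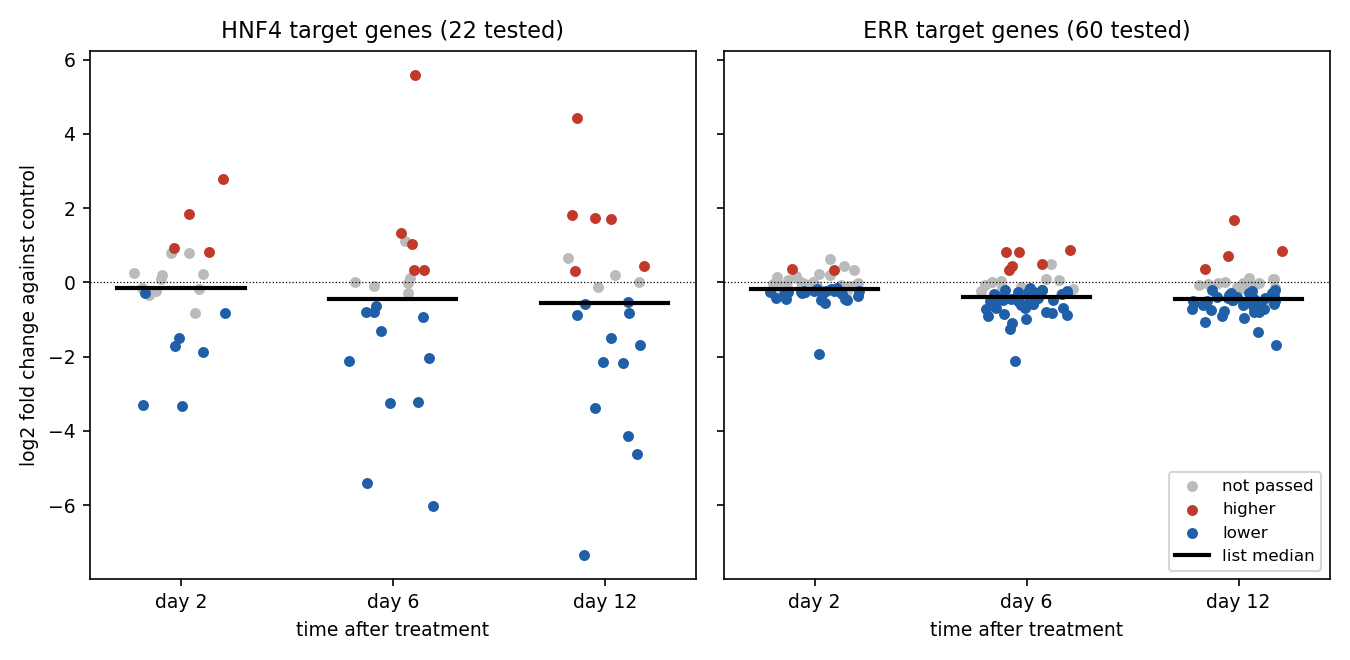
Log2 fold change against control of each tested HNF4 target gene (left, 22 genes) and ERR target gene (right, 60 genes) at each day, coloured by whether it passed the test; the black line is the list median. The HNF4 targets have medians of -0.17, -0.46 and -0.56 and the ERR targets -0.18, -0.41 and -0.44, and both lists hold genes that rose and genes that fell on each day.

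Esrra and Ppargc1a fell too, with smaller fold changes; the difference from Esrrg was not tested. Esrra, the paralogue with which Esrrg shares targets, went from 31.3 ± 2.99 CPM in control to 22 ± 2.86, 19.5 ± 1.40 and 19.1 ± 2.56 CPM on days 2, 6 and 12 (SD, n = 3; -0.70 ± 0.11 at day 12, edgeR adjusted p = 2.08e-06). In TPM it stood at 23.7 ± 1.56 in control against 6.15 ± 1.16 for Esrrg, and at 16.7 ± 3.89 against 1.19 ± 0.440 at day 12. Esrrb, the third of the family, had 0 counts. Ppargc1a, encoding the coactivator PGC-1α, fell from 69.5 ± 4.46 to 51.5 ± 4.56, 33.4 ± 0.676 and 33.6 ± 2.07 CPM (-1.06 ± 0.08 at day 6, edgeR adjusted p = 3.53e-13).

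Of 23 tested coregulators of HNF4 and ERR, 1 rose and 3 fell at day 2, 8 rose and 4 fell at day 6, and 8 rose and 6 fell at day 12, with medians of 0.05, 0.03 and 0.02. Over all tested genes 10.3% rose and 10.9% fell at day 2, 26.7% and 27.6% at day 6, and 26.1% and 26.6% at day 12. Without control C, without day 6 A or with RLE size factors, 2 coregulators rose at day 2. Pnrc1, a small nuclear receptor coactivator, was the one that rose at day 2 and went from 48.1 ± 2.01 CPM to 126 ± 10.3 at day 12 (SD, n = 3; 1.39 ± 0.07, edgeR adjusted p = 4.89e-18). Ppargc1a, Prmt1 and Prkaa2 fell on all 3 days. Prkaa2, the catalytic subunit of the energy sensor AMPK, went from 57.7 ± 1.55 CPM to 32.4 ± 0.637 by day 12 (-0.83 ± 0.08, edgeR adjusted p = 1.69e-11).

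Within the nuclear receptor family, Hnf4a and Esrrg started in the middle and dropped in the order. Ranked by mean TPM among 49 receptors, Esrrg was 22 in control libraries, 26 on day 2 and 29 on days 6 and 12. Hnf4a was 25, 30, 36 and 33 in the same order of groups. By this rank Hnf4a stood lower on day 12 than on day 2, although its mean TPM was higher (0.863 against 0.733), as was its CPM. Ppara, Rorb and Nr1h3 had a lower mean TPM than Hnf4a on day 2 and a higher one on day 12. The day 2 mean of Hnf4a rests largely on day 2 B, with 1.68 TPM beside 0.24 in A and 0.28 in C. Of 31 tested receptors, 8 rose and 6 fell at day 2, 16 rose and 8 fell at day 6, and 17 rose and 9 fell at day 12. The shares over all tested genes were 10.3% rising and 10.9% falling at day 2, 26.7% and 27.6% at day 6, and 26.1% and 26.6% at day 12. At day 2, 5 receptors rose without day 2 A, and with limma on log2(TPM + 1) 3 rose and 2 fell, with 4 falling at day 6. Pparg, the adipogenic receptor, rose from 1.86 ± 0.232 CPM to 7.79 ± 0.744 by day 2 (2.06 ± 0.22, edgeR adjusted p = 3.97e-09) and to 13.3 ± 1.95 at day 12. Vdr, the vitamin D receptor, was 85.5 ± 3.33 CPM in control and 86.2 ± 7.94 at day 2, and fell to 41.9 ± 3.29 at day 6 (-1.03 ± 0.08, edgeR adjusted p = 1.72e-13).

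**Figure D5:**
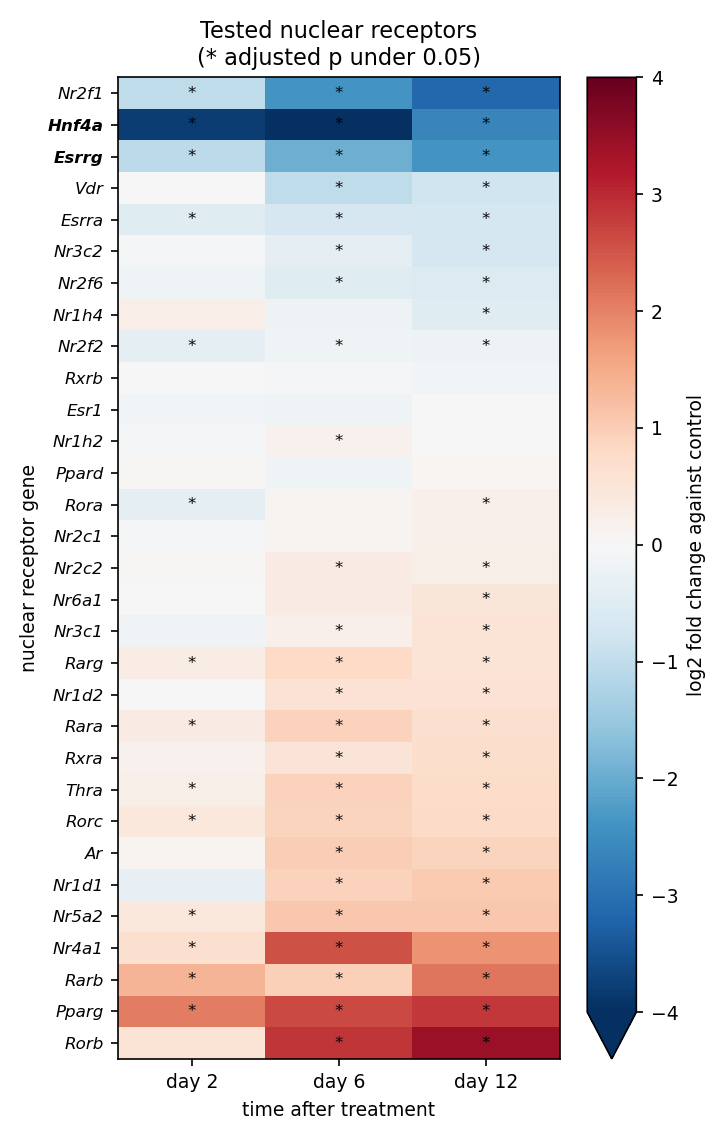
Log2 fold change against control (colour) of the 31 tested nuclear receptor genes at each day, ordered by day 12; asterisks mark an adjusted p under 0.05 and the colour scale ends at -4 and 4. Hnf4a and Esrrg, in bold, are among the darkest blue rows, with Hnf4a past the end of the scale at day 6 (-5.34).

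Genes with a pattern like that of the members were ranked by Pearson's r of log2(CPM + 2) over the 12 libraries. These libraries fall into 4 groups, so r follows the group means. The added 2 CPM is above every Hnf4a level on days 2 and 6, so differences between those days weigh less. Predicted, histone and mitochondrially encoded genes were left out. For Hnf4a, of 10508 genes with at least 5 CPM on average, the closest were Picalm (r = 0.972), Pxylp1 (0.972), Rasl11b (0.964), Galnt18 (0.962) and Kcnma1 (0.961). Galnt18, a glycosyltransferase gene, shared the lowest point at day 6 and the higher level at day 12, with 51.3 ± 4.43, 8.51 ± 0.302, 3.08 ± 0.463 and 8.75 ± 0.490 CPM in control and on days 2, 6 and 12 (SD, n = 3). Picalm, a clathrin adaptor gene, had the same order over a much smaller range, from 514 ± 35.2 CPM in control to 340 ± 2.85 at day 6. For Esrrg, of 10507 genes, the closest were Faah (0.981), Hs6st1 (0.976), Asah1 (0.975), Sim2 (0.974) and Stox2 (0.973). Sim2, a transcription factor gene, is also on the list of loop and distal tubule markers, where it was the 1 of 4 tested genes that fell at days 6 and 12 while the other 3 rose. Over all tested genes 27.6% fell and 26.7% rose at day 6, and 26.6% and 26.1% at day 12. Sim2 went from 66.9 ± 1.77 CPM to 46.5 ± 2.04, 29.2 ± 1.54 and 24 ± 2.19 CPM.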

How the data were processed

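The authors worked on GRCm38 with tools listed, per the submitters' processing notes, as STAR 2.7.8a, RSEM 1.3.3, cutadapt 2.3 and FastQC 0.11.8; annotation and strand use are not given in the sources used here. The authors deposited whole-number counts, taken here as rounded expected counts of RSEM, without normalization, and a separate table of TPM. All columns were used. Library totals of 4326667 to 11654959 counts set the precision of low genes such as Hnf4a. Counts were fitted in R 4.3.3 with edgeR 4.0.16 (filterByExpr, TMM, robust quasi-likelihood, group as the term, all 12 libraries, 8 residual degrees of freedom, two-sided), with Benjamini-Hochberg adjustment over 13513 genes; the fit was tested on simulated data. Alternatives used limma 3.58.1, DESeq2 1.42.0, other filters and scaling, and each library left out. Sequences were read with Python 3.11.15. Over the 12 pairs of replicates within groups, chi-square per degree of freedom was 2.12 to 7.56, so no library was a copy of another in its group. Pairs across groups were not compared in this way.

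The members and gene lists were chosen with earlier results of these data known, from general knowledge of HNF4 and ERR biology. Named were the members, Pax8, per list the 6 tested genes with the smallest F-test p and the gene with the highest TPM, leading markers, and the 5 genes most like each member; other names were chosen after their values were seen, and some genes the rule allows are not reported here.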

Additional observations from a re-analysis of the deposited data

Results flagged for a closer look

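Levels of Hnf4a and Esrrg differed between treated days, by the edgeR test of the difference itself, in 5 of their 6 contrasts. Over all tested genes, 44.9% passed on day 6 against day 2, 22% on day 12 against day 6 and 43.9% on day 12 against day 2. There was no later untreated group, so treatment and time in culture cannot be told apart in these contrasts. For Hnf4a, day 6 stood at -1.55 on the log2 scale against day 2, day 12 at 2.696 against day 6 and day 12 at 1.14 against day 2. For Esrrg, day 6 stood at -0.90 and day 12 at -1.34 against day 2. Hnf4a thus went down and up again between treated days, and Esrrg went down from day 2. These contrasts share treated libraries with each other.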

How the results depend on the processing

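Of the 12 log2 fold changes of Hnf4a and Esrrg, none reversed under any alternative run that gave a value. Fitted on the day 2 and day 6 libraries alone, Hnf4a gave no value for day 6 against day 2. Every contrast of Hnf4a against control passed under all alternatives. With limma on log2(TPM + 1) and log2(TPM + 0.1), calls ended for Hnf4a on day 6 against day 2 (-0.54 and -1.55), day 12 against day 6 (0.72 and 2.12) and day 12 against day 2 (0.18 and 0.57), and for Esrrg on day 6 against day 2 (-0.57 and -0.80); the fall of Esrrg at day 2 ended with the latter only (-1.02). The cause was not tested. Leaving out each library in turn gave -1.85 to -1.16 for Hnf4a on day 6 against day 2, 0.95 to 1.45 on day 12 against day 2, and -0.79 to -0.31 for Esrrg on day 12 against day 6. The same limma settings gave 634 and 676 genes higher and 871 and 819 lower at day 2, 2129 and 2097 lower at day 6 and 2325 and 2306 lower at day 12. They gave 1 and 2 HNF4 targets higher at day 2; ERR targets were 1 and 1 higher and 16 and 14 lower at day 2, 3 and 3 higher and 28 and 28 lower at day 6, and 1 and 1 higher at day 12, where DESeq2 gave 2 and leaving out a library 1 to 4. Whether the replicate letters pair libraries was not settled. After group means were removed, 6 of 12 libraries correlated best with their own letter in other groups. Across groups, r was -0.137 to 0.120 in 18 pairs with the same letter and -0.181 to 0.111 in 36 pairs with different letters. With the replicate block, Hnf4a on day 2 against control was -3.70, 1436 genes were higher and 1496 lower at day 2, and no call of Hnf4a or Esrrg changed. Depth limits Hnf4a most, with 8 counts at day 6, and Hnf4g entirely.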

Other observations

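The TPM of Hnf4a did not always follow its counts. In 10 of 12 libraries the ratio of count to TPM stayed within 0.970 to 1.07 of the control value after depth was taken into account, but it was 0.333 in day 2 B and 0.756 in day 12 B. The annotated transcripts of Hnf4a run from 431 to 4362 bases, and the ratio follows the lengths of those on which the estimate was placed. In day 2 B this makes 1.68 TPM out of 7 counts, beside 0.24 TPM out of 5 in day 2 A. For Esrrg the ratio was 0.938 to 1.06 in all 12 libraries.

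Of 10 hepatocyte markers, the summed level was at most 1.48 TPM in control and reached 8.88 to 12.5 TPM at day 12. Of these markers, 8 stayed under 1 TPM in every library, and 1, Hp, passed the filter and was tested. Hp, which encodes the plasma protein haptoglobin, had the highest mean TPM of the list. It rose from 0.347 ± 0.0707 CPM in control to 7.22 ± 1.63 at day 12 (SD, n = 3), a log2 fold change of 4.30 ± 0.36 (edgeR adjusted p = 1.88e-12). Ahsg and Cyp2c29 had 0 counts.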
